A study of Mus musculus with 6 samples.

Results

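Erythroid genes are read here in whole pancreases of mouse embryos at e15.5, as a measure of the red cells and red cell precursors that the organ carries with it. The genes were listed by name and not by their signal: the embryonic globins *Hba-x*, *Hbb-y* and *Hbb-bh1*, the haem synthesis gene *Alas2*, the membrane transporter gene *Slc4a1*, the transcription factor genes *Klf1* and *Gata1*, the erythropoietin receptor gene *Epor* and the globin chaperone gene *Ahsp*. Of these 9 genes, 8 were measured, by 14 probe sets that the annotation assigns to a single gene, out of 18194 genes in all, while *Ahsp* was not analysed here. The study asked what *Jarid2* does in the developing pancreas and compared 3 *Jarid2* WT with 3 *Jarid2* Δpanc pancreases of the C57BL/6 strain, each from a separate embryo as labelled. *Jarid2* Δpanc embryos carry *Jarid2* flox/flox alleles and a *Pdx1*-Cre transgene, which deletes exon 3 of *Jarid2* in the pancreatic epithelium in a mosaic way. Blood cells do not belong to the *Pdx1* lineage. The full genotype of the *Jarid2* WT embryos on the arrays is not given in the sources used here.

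In the mouse embryo, primitive red cells arise in the yolk sac, enter the blood as nucleated cells and make embryonic globins. *Hba-x* encodes the embryonic α-like chain, and *Hbb-bh1* and *Hbb-y* encode embryonic β-like chains that follow each other in time as primitive cells mature. Definitive red cells are made in the fetal liver, which lies close to the pancreas, and carry adult globins. *Gata1* and *Klf1* drive the erythroid program in both, binding GATA and CACCC sequences, and erythropoietin acts through its receptor on definitive precursors in particular.

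The bases before the start of 4 of the genes are shown, 2 embryonic globins that had the same order in the controls, and a haem synthesis gene and a transcription factor gene that followed neither the globins nor each other. They are the 250 bases before the annotated start in RefSeq (GRCm38.p6), which held entries for 6 of the 9 genes, and capitals mark matches, on either strand and with no overlap between motifs, to GATAA as a GATA motif, to CACCC as a Klf motif and to CCAAT as a promoter box.
Hba-x (chr11:32276350-32276599, + strand): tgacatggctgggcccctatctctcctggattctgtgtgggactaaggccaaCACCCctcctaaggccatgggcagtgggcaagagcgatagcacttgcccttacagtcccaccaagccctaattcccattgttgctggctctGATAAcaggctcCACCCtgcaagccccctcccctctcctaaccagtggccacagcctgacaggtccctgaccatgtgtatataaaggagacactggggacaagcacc
Hbb-y (chr7:103853208-103853457, - strand): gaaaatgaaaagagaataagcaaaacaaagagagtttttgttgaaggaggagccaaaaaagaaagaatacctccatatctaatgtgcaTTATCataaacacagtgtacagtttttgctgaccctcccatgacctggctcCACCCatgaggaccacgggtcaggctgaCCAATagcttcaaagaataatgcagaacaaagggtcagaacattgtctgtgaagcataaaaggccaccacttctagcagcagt
Alas2 (chrX:150547167-150547416, + strand): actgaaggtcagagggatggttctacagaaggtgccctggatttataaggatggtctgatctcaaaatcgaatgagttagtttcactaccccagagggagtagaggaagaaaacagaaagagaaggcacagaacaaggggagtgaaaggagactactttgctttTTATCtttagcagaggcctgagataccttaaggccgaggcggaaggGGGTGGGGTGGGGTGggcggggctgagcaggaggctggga
Klf1 (chr8:84901732-84901981, + strand): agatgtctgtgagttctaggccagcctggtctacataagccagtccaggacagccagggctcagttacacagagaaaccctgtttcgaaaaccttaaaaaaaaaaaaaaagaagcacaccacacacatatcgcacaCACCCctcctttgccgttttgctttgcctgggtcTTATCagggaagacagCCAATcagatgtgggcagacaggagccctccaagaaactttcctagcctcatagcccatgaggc

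Each of these 4 windows held the GATA motif at 1 place. *Epor* held it as well and *Gata1* did not, so that 5 of the 6 windows had it, beside 22.6% of 32851 windows of the same length over all promoters. The Klf motif was in all 6, beside 52.0% of all promoters, and the promoter box in *Hbb-y* and *Klf1*, beside 33.9%. These matches describe letters and not bound sites.

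Signals are MAS5 intensities on a linear scale, brought to a trimmed mean of 150 on every array, and log2 was taken after values under 16 were raised to 16. Fold changes are differences of mean log2 signal, *Jarid2* Δpanc minus *Jarid2* WT. For *Jarid2* the difference was 0.13 with a standard error (SE) of 0.14, from a probe set whose place relative to exon 3 was not checked. Pancreas epithelium transcripts were bright on all arrays. Their summed signals over 12 of 13 genes were lower in *Jarid2* Δpanc, at 40367 to 49344 against 52902 to 58817 in the controls. At an unadjusted p under 0.05 from limma, 4 of the 12 were lower, *Cel*, *Gcg*, *Iapp* and *Ins2*, beside 4.44% of all genes. At an adjusted p, 0 were. Of the 12, 9 had a negative log2 fold change and 3 a positive one, *Sox9*, *Pdx1* and *Nkx6-1* (0.19, 0.08 and 0.02). The part of the epithelium transcripts in the erythroid signals was not tested. Single arrays stood apart for other tissues. *Jarid2* WT replicate 3 carried skeletal muscle transcripts, with a summed signal of 11335 over 10 genes against 235 to 337 on the other arrays. *Jarid2* WT replicate 2 and *Jarid2* Δpanc replicate 3 carried liver transcripts. *Jarid2* Δpanc replicate 1 carried neutrophil transcripts, with a summed signal of 2635 against 310 to 728 over 9 measured of 10 genes. *S100a8* (1425), *S100a9* (613) and *Ngp* (278) were the brightest of them there, while *Ctsg*, *Elane* and *Prtn3* had 8, 7 and 20. Its summed macrophage signal was the highest as well, at 3884 against 2143 to 2976 on the other arrays. The X-inactivation transcript *Xist* had signals of 24 and 12 in *Jarid2* WT replicates 1 and 2 and of 4197 to 4905 in the other 4. The Y-linked *Eif2s3y*, *Kdm5d* and *Uty* had 139 to 560 in *Jarid2* WT replicates 1 and 2 and 2 to 13 in the other 4. By these transcripts, those 2 controls were male and the other 4 embryos female, so that sex and group were partly confounded.

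The embryonic globins *Hba-x* and *Hbb-y* were spread widely among the *Jarid2* WT pancreases and narrowly among the *Jarid2* Δpanc pancreases, and the difference between the groups was not resolved. *Hbb-y* had signals of 4864, 2292 and 7319 in *Jarid2* WT and of 4279, 3965 and 4734 in *Jarid2* Δpanc. All 3 *Jarid2* Δpanc samples thus lay inside the range of the controls, whose highest was 3.19 times the lowest, against 1.19 times in *Jarid2* Δpanc. The log2 fold change was -0.01 (SE 0.46, 95% confidence interval -1.23 to 1.21, adjusted p = 1 from limma). The interval is wide enough to hold a doubling or a halving of the signal. The other probe sets of *Hbb-y* gave the same order of the controls, with signals of 2286 to 7244 and of 618 to 2136 in *Jarid2* WT, and log2 fold changes of -0.01 and -0.17.

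*Hba-x* followed the same order in the controls. Its signals were 313, 164 and 375 in *Jarid2* WT and 269, 257 and 228 in *Jarid2* Δpanc, and the latter again lay inside the control range. The log2 fold change was -0.10 (SE 0.34, 95% confidence interval -1 to 0.81, adjusted p = 1 from limma). Over the 6 arrays the log2 signals of *Hba-x* and *Hbb-y* had a Pearson correlation of 0.93. This describes 6 points that share libraries and scaling. Among the *Jarid2* Δpanc samples the orders differed, with replicate 3 lowest for *Hba-x* and highest for *Hbb-y*. Among 9959 genes with a mean signal of at least 64, all 3 *Jarid2* Δpanc samples lay inside the control range in 17.1%, and the residual standard deviations of *Hba-x* and *Hbb-y* were higher than those of 98.1% and 99.1% of these genes. In a tissue sample, fewer red cells and less globin RNA per cell cannot be told apart.

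*Jarid2* WT replicate 2 decided where the controls stood. Without it, *Hba-x* and *Hbb-y* had log2 fold changes of -0.45 and -0.47 (unadjusted p = 0.0261 and 0.108, adjusted p = 0.492 and 0.711 from limma), and all 3 *Jarid2* Δpanc samples lay below the remaining controls. Without *Jarid2* WT replicate 3, the sample with muscle transcripts, they had 0.15 and 0.37. Neither gene passed the test with either control left out. With the class of *Xist* signal as a covariate they had -0.58 and -0.76. Low *Xist* occurred only in controls, so that this group difference rests on *Jarid2* WT replicate 3, the only control with high *Xist*. The *Xist* class and the group can thus hardly be told apart. *Jarid2* WT replicate 2 was also a sample with liver transcripts, and *Jarid2* WT replicate 3 that with muscle transcripts, and the part of either in the globin signals was not tested.

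*Hbb-bh1*, the earlier of the embryonic β-like genes, was at the edge of what the arrays read. Its probe set with the highest mean had signals of 22, 21 and 23 in *Jarid2* WT and 13, 9 and 3 in *Jarid2* Δpanc. The groups did not overlap, but all 3 *Jarid2* Δpanc values lay under the floor of 16 and were set to it. The log2 fold change of -0.46 (SE 0.04, adjusted p = 0.219 from limma) is therefore set by the floor, and its SE covers no spread in *Jarid2* Δpanc. It was -1.64 with a floor of 1, 0 with a floor of 64 and -0.096 with the mean of its probe sets. In the other 2 probe sets the groups overlapped, with signals of 3 to 21 and of 2 to 26 over the 6 arrays and log2 fold changes of 0.13 and 0.04. With quantile normalization, the first probe set passed (adjusted p = 0.0474 from limma), with its *Jarid2* Δpanc values still at the floor. With the class of *Xist* signal as a covariate it had -0.52, relative to *Jarid2* WT replicate 3 alone, the only control with high *Xist*.

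**Figure D1:**
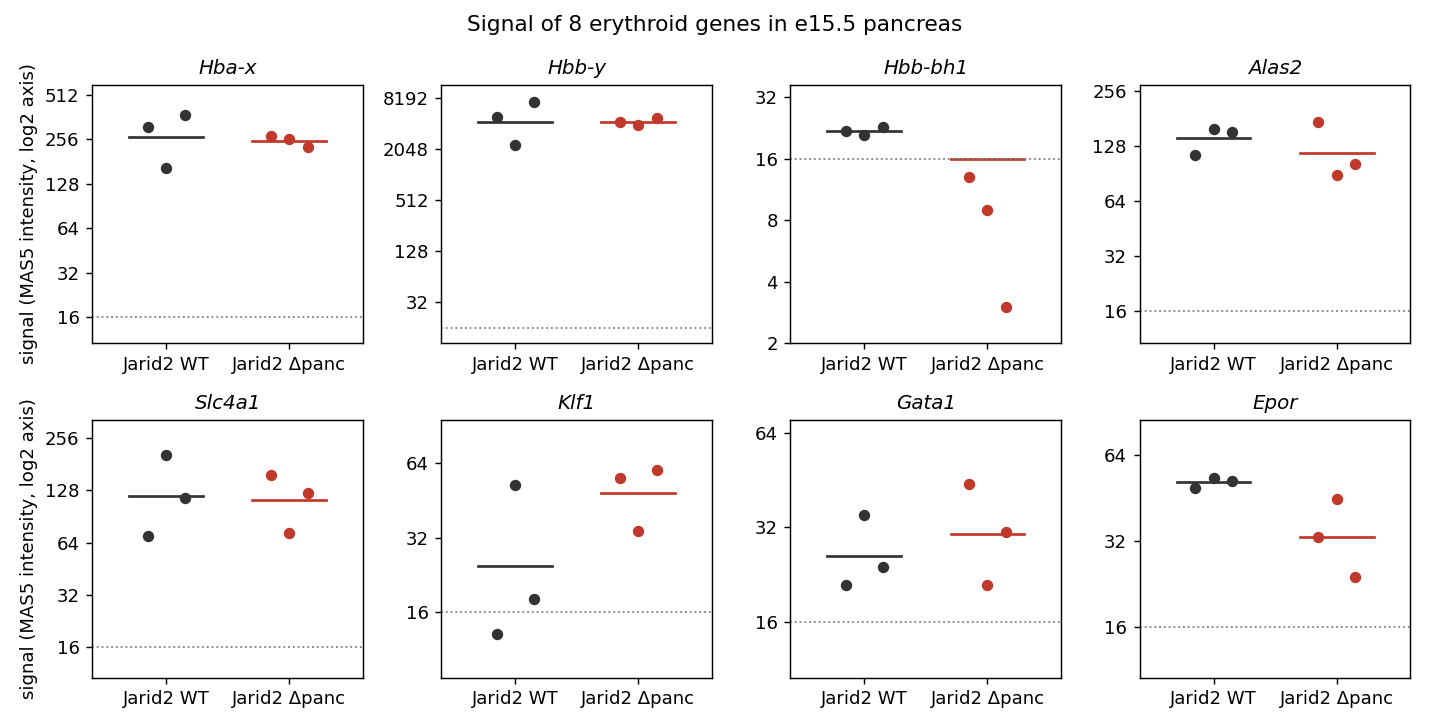
Signal of 8 erythroid genes (MAS5 intensity, log2 axis, a separate range in each panel) in 3 *Jarid2* WT (dark) and 3 *Jarid2* Δpanc (red) pancreases, placed from left to right by replicate number, with lines for the mean of floored log2 values and a dotted line at the floor of 16. For *Hbb-y* the red points, at 3965 to 4734, lie inside the control range of 2292 to 7319, and for *Epor* they lie below it.

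*Slc4a1*, which encodes the anion exchanger band 3 of the red cell membrane, varied widely between the samples of both groups. Its signals were 70, 204 and 116 in *Jarid2* WT and 157, 73 and 123 in *Jarid2* Δpanc. The groups overlapped fully, with the highest value in *Jarid2* WT replicate 2, where the embryonic globins were lowest. The log2 fold change was -0.08 (SE 0.51, 95% confidence interval -1.43 to 1.28, adjusted p = 1 from limma). Another probe set had signals of 51 to 140 and a log2 fold change of -0.13, and the last was under the floor on all arrays, with at most 4.

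*Alas2* encodes the erythroid form of the enzyme that starts haem synthesis and lies on the X chromosome. It had signals of 114, 158 and 153 in *Jarid2* WT and 172, 89 and 102 in *Jarid2* Δpanc. Here the controls lay inside the range of *Jarid2* Δpanc, and the log2 fold change was -0.27 (SE 0.30, 95% confidence interval -1.08 to 0.53, adjusted p = 0.845 from limma). Samples with low and high *Xist* overlapped. With the *Xist* class as a covariate the fold change was -0.40, relative to *Jarid2* WT replicate 3 alone, the only control with high *Xist*. The fold change was -0.56 without *Jarid2* Δpanc replicate 1 (unadjusted p = 0.0486, adjusted p = 0.616), where the groups did not overlap, and -0.082 without *Jarid2* Δpanc replicate 2.

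*Klf1* and *Gata1*, the transcription factor genes of the erythroid program, were dim, and neither passed the test. *Klf1* had signals of 13, 52 and 18 in *Jarid2* WT and 56, 34 and 60 in *Jarid2* Δpanc. *Jarid2* WT replicate 2 lay among the *Jarid2* Δpanc samples, while replicates 1 and 3 were near the floor. The log2 fold change of 0.98 (SE 0.56, 95% confidence interval -0.50 to 2.45, adjusted p = 0.735 from limma) had the highest value of the 8 genes. It was 1.52 without *Jarid2* WT replicate 2 (unadjusted p = 0.0107, adjusted p = 0.396) and 0 with a floor of 64, above all its signals.

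*Gata1*, which is X-linked as well, had signals of 21, 35 and 24 in *Jarid2* WT and 44, 21 and 31 in *Jarid2* Δpanc. The groups overlapped, with a log2 fold change of 0.23 (SE 0.35, 95% confidence interval -0.70 to 1.17, adjusted p = 0.921 from limma).

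*Epor*, which encodes the erythropoietin receptor, had lower signals in all 3 *Jarid2* Δpanc pancreases than in the controls. Its signals were 49, 53 and 52 in *Jarid2* WT and 33, 45 and 24 in *Jarid2* Δpanc. The controls lay close together and the *Jarid2* Δpanc samples apart from each other. The log2 fold change was -0.64 (SE 0.25, 95% confidence interval -1.29 to 0.01) and did not pass (unadjusted p = 0.0522, adjusted p = 0.575 from limma). It was -0.87 without *Jarid2* Δpanc replicate 2 (unadjusted p = 0.00809, adjusted p = 0.378) and -0.41 without *Jarid2* Δpanc replicate 3. All its signals were under 64, and with a floor of 64 the fold change was 0.

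Over the 8 measured genes, 0 passed an adjusted p under 0.05 from limma, beside 0% of 18194 genes. At an unadjusted p under 0.05, 1 was lower, *Hbb-bh1*, and 0 were higher, beside 4.44% and 4.37% of all genes. In 2 of the 8, *Hbb-bh1* and *Epor*, all *Jarid2* Δpanc samples lay below all controls, and in 0 above, beside 5.64% and 5.71% of all genes. Both are dim. *Hbb-bh1* was at the floor in *Jarid2* Δpanc, while *Epor*, with signals of 24 to 53, was above it on all arrays. The median log2 fold change of the 8 genes was -0.09, beside 0 over all genes. Of the 8, 6 were negative and 2 positive, beside 7896 and 8670 of 18194 genes. Of all genes, 1573 were at the floor on all arrays and had a fold change of 0, while 0 of the 8 were. Tested as separate features, 0 of the 14 probe sets passed, beside 0.00286% of 34958, and 2 of the 14, those of the same genes, lay below all controls, beside 4.61%. Without *Jarid2* WT replicate 2, 5 of the 8 genes did not overlap, *Hba-x*, *Hbb-y*, *Hbb-bh1*, *Epor* and, in the other direction, *Klf1*. With 1 control fewer, however, 9.77% of all genes lay below and 9.56% above all controls, and the median of the 8 genes was -0.32. The same 5 did not overlap with *Jarid2* Δpanc replicate 3 left out as well, an alternative chosen after seeing the data, with a median of -0.24, where 14.6% of all genes lay below and 15.4% above.

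**Figure D2:**
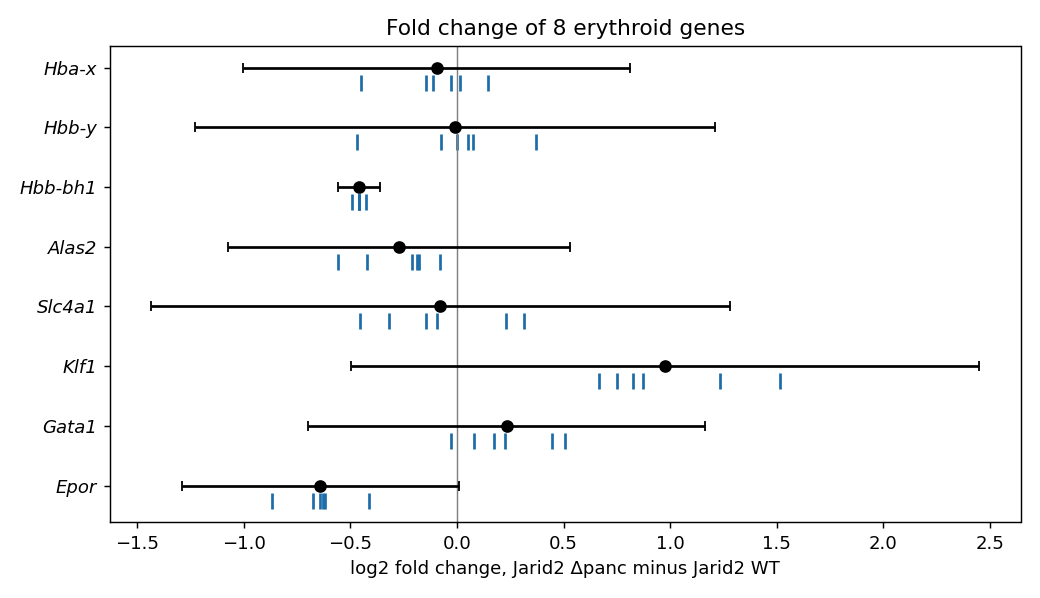
Log2 fold change of 8 erythroid genes (*Jarid2* Δpanc minus *Jarid2* WT, horizontal axis), with black points and bars for the value over all 6 arrays and its 95% confidence interval from limma, and blue ticks for the values with each sample left out in turn. The intervals of 7 genes cross 0, and that of *Hbb-bh1* is narrow because its *Jarid2* Δpanc values were all set to the floor.

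The embryonic globins and the other erythroid genes did not share an order over the pancreases. Relative to each gene's mean over the 6 arrays, *Jarid2* WT replicate 2 had log2 values of -0.66 for *Hba-x* and -0.92 for *Hbb-y*, but 0.82 for *Slc4a1*, 0.59 for *Klf1*, 0.31 for *Gata1* and 0.31 for *Alas2*. *Jarid2* WT replicate 1 ran the opposite way, with 0.27 and 0.17 for the 2 globins, -0.72 for *Slc4a1* and -1.11 for *Klf1*. *Jarid2* Δpanc replicate 1 had high values of *Slc4a1*, *Klf1* and *Gata1* (0.45, 0.70 and 0.64) with the globins near their mean. *Jarid2* Δpanc replicate 3 followed neither, with *Klf1* at 0.79, *Slc4a1* at 0.09, *Alas2* at -0.32 and the globins at -0.19 and 0.13. The difference between *Slc4a1* and *Hbb-y* on these scales ran from -0.89 in *Jarid2* WT replicate 1 to 1.74 in *Jarid2* WT replicate 2, and from -0.53 to 0.46 in *Jarid2* Δpanc.

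As a description of these 6 arrays, *Slc4a1* had Pearson correlations of 0.87 with *Gata1*, 0.75 with *Alas2* and 0.65 with *Klf1*, and of -0.58 and -0.47 with *Hba-x* and *Hbb-y*. *Alas2* and *Klf1* had 0.10 with each other. *Hbb-bh1* and *Epor* had 0.76 with each other, -0.72 and -0.64 with *Klf1* and -0.0016 and -0.13 with *Slc4a1*. *Hbb-bh1* was set to the floor on all *Jarid2* Δpanc arrays, so that its correlations largely restate the difference between the groups. *Epor*, *Klf1* and *Gata1* are dim, and all values of an array share its library and scaling.

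Liver transcripts moved with part of this pattern. Albumin (*Alb*) had signals of 58, 751 and 86 in *Jarid2* WT and 137, 47 and 790 in *Jarid2* Δpanc, and α-fetoprotein (*Afp*) had 479, 1917 and 523 and then 726, 507 and 1736. The sum over the 8 measured of 10 liver genes ranged from 648 to 3024 in the controls and from 681 to 2886 in *Jarid2* Δpanc, with 1 high sample in each group, and neither *Alb* nor *Afp* was at the floor on any array. Over the 6 arrays, *Slc4a1* and *Klf1* correlated with *Alb* at 0.76 and 0.72, *Gata1* at 0.62 and *Alas2* at 0.22, and *Hba-x* and *Hbb-y* at -0.75 and -0.50. Of the 2 samples with high *Alb*, *Jarid2* WT replicate 2 had the highest *Slc4a1* (204) and *Jarid2* Δpanc replicate 3 had 123, near the middle. *Jarid2* Δpanc replicate 1 had high *Slc4a1*, *Klf1* and *Gata1* with *Alb* at 137, far under the 2 samples with liver transcripts. The summed neutrophil and macrophage signals were also highest in *Jarid2* Δpanc replicate 1. The part of liver, neutrophil or macrophage transcripts in the erythroid signals was not tested.

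**Figure D3:**
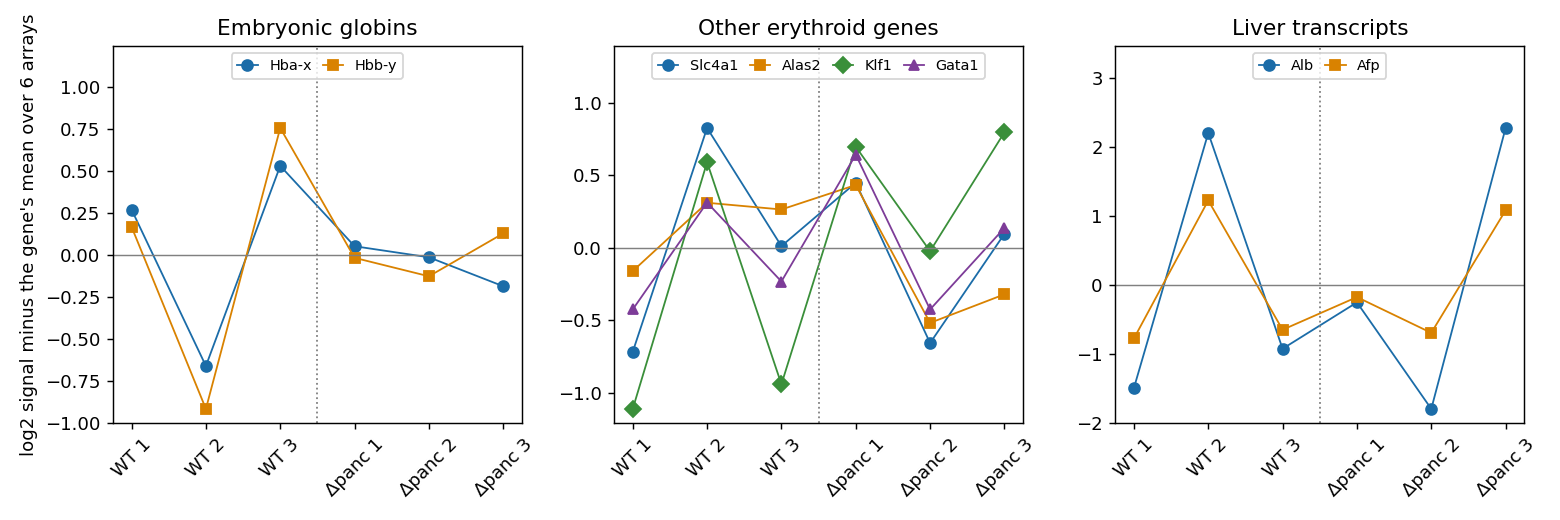
Log2 signal minus the gene's mean over 6 arrays (vertical axis) for the embryonic globins, for 4 other erythroid genes and for 2 liver transcripts, in *Jarid2* WT replicates 1 to 3 and *Jarid2* Δpanc replicates 1 to 3 (horizontal axis), with lines only to guide the eye and a separate vertical range in each panel. In *Jarid2* WT replicate 2 the globins are lowest, at -0.66 and -0.92, where *Slc4a1* is highest, at 0.82, and *Alb* is at 2.20, while in *Jarid2* Δpanc replicate 3, with *Alb* at 2.27, *Slc4a1* is at 0.09 and the globins are at -0.19 and 0.13.

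Of 118 other genes that red cells and their precursors use, in 6 lists, 101 were measured, and 0 passed an adjusted p under 0.05 from limma in either direction. At an unadjusted p under 0.05, 1 was lower and 1 higher, beside 4.44% and 4.37% of all genes, and 4 lay below and 1 above all controls, beside 5.64% and 5.71%. Of the 101, 51 had a negative and 50 a positive log2 fold change, with a median of -0.01. Over all 18194 genes, 7896 (43.4%) were negative and 8670 positive, which also stands beside the counts of each list below. These include 1573 genes at the floor on all arrays, with a fold change of 0, against 0 of the 101. Many of these genes are also used by other cells of the pancreas.

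For haem synthesis and the import of iron into mitochondria, 11 of 14 genes had a negative fold change, none beyond -0.20, with a median of -0.07. The mitochondrial carrier *Slc25a39* averaged 2516 ± 58.2 (SD, n = 3) in the controls and 2418 ± 90.1 (SD, n = 3) in *Jarid2* Δpanc, the glutaredoxin *Glrx5* had a log2 fold change of -0.08 (SE 0.04), and the uroporphyrinogen decarboxylase *Urod* had -0.16 (SE 0.07) with all *Jarid2* Δpanc samples below the controls.

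For the red cell membrane, 12 of 21 genes were negative, with a median of -0.02. The brightest were the glucose transporter *Slc2a1* at 0.10 (SE 0.16), the adducin *Add1* at -0.02 (SE 0.08) and the scavenger receptor *Cd36* at 0.23 (SE 0.20).

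Among erythroid transcription factors, 6 of 20 were negative and 14 positive, with a median of 0.03. *Klf3*, a relative of *Klf1* that binds the same kind of sequence, had 690, 728 and 778 in *Jarid2* WT and 847, 810 and 799 in *Jarid2* Δpanc, all above the controls, which gave a difference of 0.16 in log2 (SE 0.05, unadjusted p = 0.0323, adjusted p = 0.504 from limma). The stress-response factor *Foxo3* had 0.07 (SE 0.22) and the progenitor factor *Myb* -0.05 (SE 0.13). *Gfi1b*, a repressor in red cell and platelet precursors named after its values were seen, was dim, with 28, 38 and 24 in *Jarid2* WT and 22, 22 and 16 in *Jarid2* Δpanc.

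For iron uptake and erythropoietin signalling, 5 of 15 were negative, with a median of 0.07. The ferritin heavy chain *Fth1* had 5122, 5123 and 5143 in *Jarid2* WT and 4763, 4955 and 4565 in *Jarid2* Δpanc, which gave a difference of -0.11 in log2 (SE 0.03, unadjusted p = 0.0275, adjusted p = 0.484 from limma). The iron-responsive aconitase *Aco1* had 0.05 (SE 0.07) and the transferrin receptor *Tfrc* 0.07 (SE 0.28), with control signals of 881 to 1504 and *Jarid2* Δpanc signals of 988 to 1569.

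Among red cell enzymes and genes of terminal maturation, 15 of 29 were negative, with a median of -0.02. *Prdx2*, *Gpx1* and *Cat*, which remove peroxides, had log2 fold changes of 0.03, 0.07 and 0.06 (SEs 0.04, 0.21 and 0.09).

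Adult globins could be read only in part. Of 9 genes, 3 had probe sets of their own. *Hbb-b2* had 177, 167 and 208 in *Jarid2* WT and 150, 148 and 96 in *Jarid2* Δpanc, so that all *Jarid2* Δpanc samples lay below the controls, with a log2 fold change of -0.51 (SE 0.22, adjusted p = 0.621 from limma). *Hba-a2* had 19 to 51 over the 6 arrays, and *Hba-a1* had at most 18, near the floor. The 4 probe sets shared by several adult globin genes, described at the end, were far brighter, with signals of 3579 to 16141. The values of these 3 genes therefore do not give the level of adult globin RNA.

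**Figure D4:**
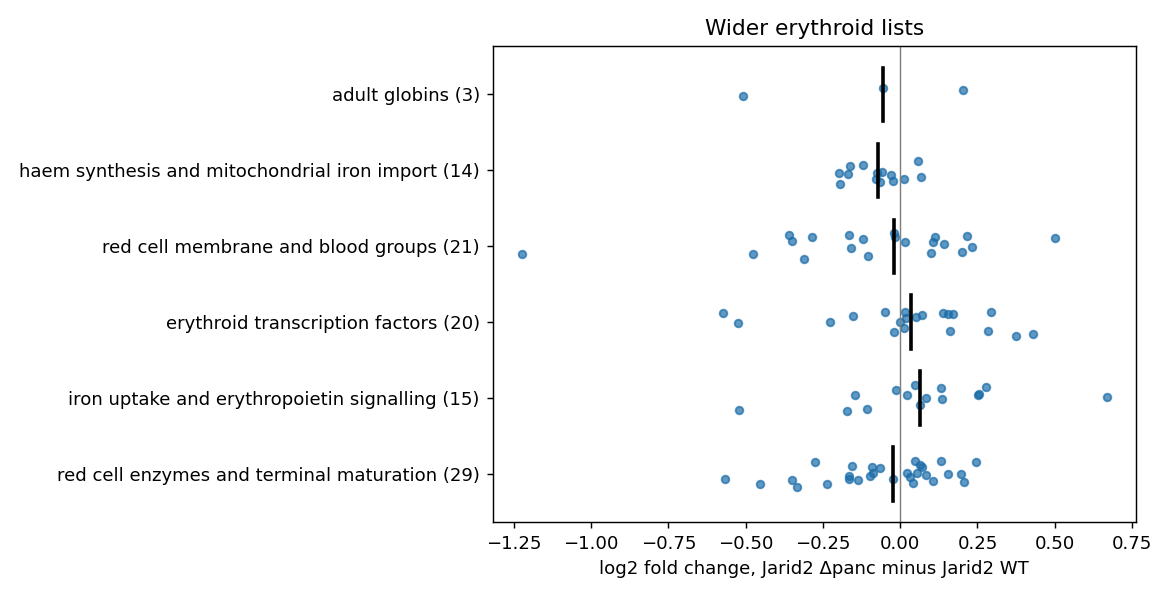
Log2 fold change (*Jarid2* Δpanc minus *Jarid2* WT, horizontal axis) of the measured genes of 6 wider erythroid lists, with the number of genes in brackets, a blue point for each gene and a black bar for the median of the list. The medians lie between -0.07 and 0.07, with genes on both sides of 0 in each list.

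The pattern of the brighter members was compared with that of other genes, as a description over 6 arrays. For the mean profile of *Hba-x*, *Hbb-y*, *Alas2* and *Slc4a1*, the 8 most similar of 466 genes with a mean signal of at least 64 and a range of at least 1 on the log2 scale were *Sik1*, *Hmcn1*, *Col11a1*, *Mybpc1*, *Myh8*, *Synpo2l*, *Des* and *Tmod1*, with Pearson correlations of 0.94 to 0.83. Of these, the muscle genes *Mybpc1*, *Myh8* and *Des* were highest in *Jarid2* WT replicate 3, the sample with muscle transcripts, with *Myh8* at 1758 there and 15 to 68 elsewhere. *Synpo2l*, *Tmod1* and *Col11a1* were highest there too, at 245, 178 and 167. *Tmod1* is also in the red cell membrane list. Its log2 fold change of -1.22 (SE 0.76) was the lowest of the 101 wider genes, and the part of muscle transcripts in it was not tested.

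Since *Hbb-y* and *Slc4a1* differed in their order over the arrays, they were also ranked apart, a choice made after the values were seen. The gene most similar to *Slc4a1* was the carbonic anhydrase *Car2*, an abundant red cell enzyme, with signals of 134, 307 and 161 in *Jarid2* WT and 231, 119 and 171 in *Jarid2* Δpanc (correlation 0.97). Another carbonic anhydrase of the red cell enzyme list, *Car1*, had signals of 2 to 21. The leukocyte genes *Ptprc* and *Cd53* were among the 8 genes most similar to *Slc4a1* too (0.88 and 0.86). The rest of the 8 were *Rimklb*, *Shq1*, *1810014B01Rik*, *H3f3a* and *Erdr1*. The gene most similar to *Hbb-y* was *Cox6a2*, a muscle form of a cytochrome oxidase subunit, with 80, 17 and 225 in *Jarid2* WT and 57, 98 and 90 in *Jarid2* Δpanc (correlation 0.95), and no wider erythroid gene was among its 8.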

How the data were processed

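RNA of e15.5 pancreases from 3 *Jarid2* WT and 3 *Jarid2* Δpanc embryos (50 ng of total RNA per sample) was amplified in 2 rounds and hybridized to Mouse Genome 430 2.0 arrays. The deposited values are intensities on a linear scale, made by the authors with MAS5 according to the submitters' notes (version not given in the sources used here), whereas RMA and LIMMA are named in the methods of the paper. They are whole numbers whose mean, with the top and bottom 2% removed, is 150 on each array. Per array, 26.5% to 29.0% of 45101 probe sets lay under 16. A description label names islets in glucose. The other labels name e15.5 pancreas and were followed. The labels give no batches, and their embryo numbers name replicates only.

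Values were floored at 16 and log2 was taken. Of 35890 annotated probe sets, 34958 carry 1 gene symbol, 932 carry several and were left out, as were 9211 without a name. Each of 18194 genes was represented by its brightest probe set over the 6 arrays. The group comparison used lmFit and eBayes of limma 3.58.1 (R 4.3.3), with 4 residual and 0.61 prior degrees of freedom, Benjamini-Hochberg adjustment over all genes and a threshold of 0.05. The fit was tested on simulated data with normal errors and no floor. That checks the calculation and not its behaviour on these floored signals. The members, lists and rules were chosen with earlier results of these data known. Named were the members, the 3 brightest genes of each wider list, any gene past the threshold and the 8 genes most like the mean profile of members with a mean signal of at least 64. Alternatives were each sample left out, the replicate number as a block, the class of *Xist* signal (split at 1000) as a covariate, normalization, floors of 1 and 64, filters on dim genes, the mean of a gene's probe sets and the variance model. A fit without *Jarid2* WT replicate 2 and *Jarid2* Δpanc replicate 3 was chosen after seeing the data. The number of arrays limits the precision.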

Additional observations from a re-analysis of the deposited data

How the results depend on the processing

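In 16 of 18 alternatives 0 of the 8 genes passed, and in the other two, with quantile normalization and with the *Xist* class as a covariate, 1 did, *Hbb-bh1* at the floor. In all 18, 0 genes of the wider lists passed. Over all genes, 0 passed with all samples, 0 to 9 with a sample left out, 3 with quantile normalization, 64 with trended, robust variances and the dimmest 40% left out, and 221 with the *Xist* class as a covariate. The number of the 8 genes whose groups did not overlap was 2 with all samples, 2 to 5 with a sample left out, 5 without the 2 arrays with liver transcripts, 1 with the mean of a gene's probe sets and 0 with a floor of 64 or the dimmest 40% left out, in either variance model, which remove the dim genes. With the dimmest 40% left out, only *Hba-x*, *Hbb-y*, *Alas2* and *Slc4a1* of the 8 were tested. The share of all genes that did not overlap, in either direction, was 11.3% with all samples, 18.5% to 21.3% with a sample left out and 30% without the 2 arrays with liver transcripts. The median log2 fold change was -0.32 to 0.027 with a sample left out and -0.46 with the *Xist* class as a covariate. *Hbb-y* had 0.075 with quantile normalization and -0.47 to 0.37 with a sample left out, *Hba-x* had -0.45 to 0.15, *Alas2* -0.56 to -0.082, *Epor* -0.87 to -0.41, *Slc4a1* -0.46 to 0.32 and *Gata1* -0.029 to 0.50. *Slc4a1*, *Hba-x* and *Hbb-y* had 0.25, -0.38 and -0.53 without the 2 arrays with liver transcripts. With a sample left out, 0 of the 14 probe sets passed. With the replicate number as a block, 0 of the 8 genes passed and the median was -0.09. Deviations from the group means of same-numbered samples had correlations of -0.07, -0.04 and -0.03. These values cannot decide whether same-numbered samples were paired, since there was no known pair to compare with.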

Other observations

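Adult globins are also read by 4 probe sets that the annotation gives to several genes at once, which were left out of all comparisons. The probe set shared by 4 adult β-globin genes had signals of 10951 to 13730 over the 6 arrays, and 2 of the 3 shared by the adult α-globin genes had 12614 to 16141 and 12723 to 15177, where the brightest probe set of an array read 19539 to 25093. Their highest values were 1.25, 1.28 and 1.19 times the lowest. The remaining α-globin probe set had signals of 4212, 5529 and 4127 in *Jarid2* WT and 4458, 3729 and 3579 in *Jarid2* Δpanc, highest in *Jarid2* WT replicate 2. The log2 fold changes of the 4, with no test, were -0.13, -0.04, -0.09 and -0.23.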
